A study of Mus musculus with 12 samples.

Results

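The genes described here take up vitamin A, bind its acid form, make and break down that acid, and respond to it: Stra6, Crabp1, Crabp2, Aldh1a1, Aldh1a2, Aldh1a3, Dhrs9, Cyp26b1 and Rarg. They were looked up by symbol in the deposited table of 14533 genes, which holds 8 of the 9. Aldh1a2 is not in the table, so it has no count here. Each listed gene exceeds 0.5 CPM (counts per library total, here without TMM factors) in at least 6 mice, and a gene low in one group can be listed through the other. The levels of genes and markers given below are CPM scaled with TMM factors.

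The study compared the skin of mice that lack Pparg in keratinocytes with that of WT mice, by sequencing mRNA from untreated dorsal skin. All 12 mice were of strain C57BL/6 and carried Pparg flox/flox alleles, with Cre driven by the Cytokeratin14 promoter in the 6 Pparg-/-epi mice (Cre+/-) and no Cre in the 6 WT mice (Cre-/-), 1 library per mouse. The tissue was snap frozen and scraped down to the vascular bed under the epidermis, so cells without Cytokeratin14 promoter activity contribute RNA and keep their Pparg. By the labels the WT mice were 3 females and 3 males of 8 to 13 weeks, and the Pparg-/-epi mice 4 females and 2 males of 8 to 13 weeks. Total counts ranged from 10120840 to 18851255 per library, so that 1 count was worth 0.0530 to 0.0988 CPM by total counts alone, and the floor, set at 3 counts, 0.159 to 0.296 CPM, which covers counting error only.

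Retinol circulates bound to a carrier protein, enters cells in part through the membrane receptor STRA6, and is held inside by cellular binding proteins or stored as esters. Dehydrogenases oxidise it to retinal and then to retinoic acid, which binds nuclear retinoic acid receptors paired with retinoid X receptors, and CYP26 enzymes break the acid down. In skin, retinoic acid is known for acting on keratinocyte differentiation, on sebaceous glands and on the hair cycle.

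Pparg itself, on chromosome 6 from 115360951 to 115490401 of mm10 (plus strand), had 59, 269, 5, 15, 58 and 13 counts in WT replicates 1 to 6. In Pparg-/-epi replicates 7 to 12 it had 100, 107, 89, 16, 32 and 25 counts. Cre removes only exons 1 and 2, while counts cover the whole gene, and they do not separate the genotypes. Its log2 fold change was -0.10 (SE 0.71, adjusted p = 0.949), and 0.86 without WT replicate 2 (adjusted p = 0.308).

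WT replicate 2 stood apart from the other WT mice in several values. Its summed level of the 6 suprabasal keratinocyte markers was 14933.5 CPM, against 35176 to 44227 CPM in the other WT mice, and its growing hair follicle markers summed to 2290.1 CPM against 28.4 to 606 CPM. Its RNA integrity number (RIN) was 8.6, against 5.9 to 7.4 in the other WT mice. Many of the results below are therefore given with and without that mouse. Leaving it out leaves no WT mouse above 606 CPM in the hair follicle sum or above 7.4 in RIN. Pparg-/-epi replicates 7 and 8 exceed both values. Other mice stood apart in other sums. Mouse names also carry a number whose meaning the labels do not give. Of the WT mice, 4 share number 226, which no Pparg-/-epi mouse has, so that number and genotype cannot be told apart for them. Number 222 alone holds mice of both groups, WT replicate 2 and Pparg-/-epi replicate 10.

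The scrapings held the markers of epidermis. All 6 basal markers, of which Krt5 was the most abundant, were in the table, with sums of 8169 to 14630.0 CPM in WT and 11025 to 15328 CPM in Pparg-/-epi mice. The 6 suprabasal markers, led by Krt10, summed to 22814 to 46153 CPM in Pparg-/-epi mice, and no marker of either list was at 0 in any mouse. The 10 dermal fibroblast markers, led by Col1a1, were present too and ranged more widely in WT mice (1333 to 39165 CPM) than in Pparg-/-epi mice (6878 to 14103 CPM).

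In brief, 2 of the 8 genes were altered, both higher in Pparg-/-epi mice: Stra6, the retinol uptake receptor, and Aldh1a3, an enzyme of the last step of retinoic acid synthesis. Altered here means a log2 fold change at or beyond 0.6 in either direction together with an adjusted p under 0.05 in edgeR's quasi-likelihood test over all 14533 genes. By that rule 10.3% of all genes were altered, of which the higher ones make 5.19% and the lower ones 5.08%. With an adjusted p under 0.05 and no minimum fold change, 3 of the 8 genes passed, the additional one being Crabp2, against 15.4% of all genes. Groups did not overlap in 1 of the 8, Stra6, against 7.90% of all genes. The log2 fold change was above 0 in 6 and below 0 in 2 of the 8, with a median of 0.48, and the median over all genes was -0.011. Without WT replicate 2, 4 of the 8 were altered (Stra6, Aldh1a3, Dhrs9 and Cyp26b1), against 15.5% of all genes.

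**Figure D1:**
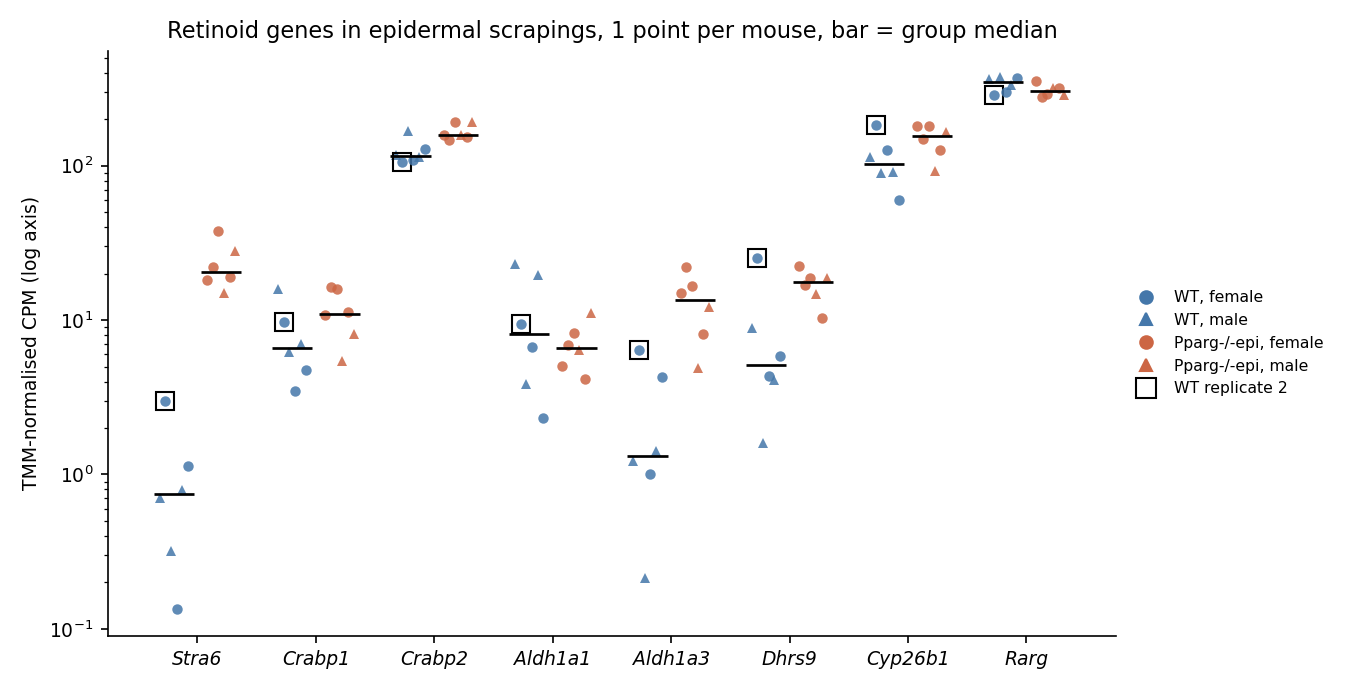
Level of each of the 8 genes in every mouse, in CPM on a log axis, with 1 point per mouse, circles for females, triangles for males, a bar at the median of each group of 6 mice and a square around WT replicate 2. Every Pparg-/-epi mouse lies above every WT mouse for Stra6 only, while WT replicate 2 lies above every Pparg-/-epi mouse for Dhrs9 and Cyp26b1.

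Uptake comes first. Stra6 encodes the membrane receptor that takes retinol from its blood carrier into the cell, and lies on chromosome 9 from 58129088 to 58153997 (plus strand, 22 exon intervals of 3642 bases in all). WT mice had 2 to 56 counts of it (median 10.5) and Pparg-/-epi mice 181 to 623 counts (median 337.5). In CPM the lowest, median and highest WT mice were at 0.134, 0.747 and 2.97, and the Pparg-/-epi mice at 15.1, 20.5 and 37.7. The groups were far apart: the lowest Pparg-/-epi mouse, male replicate 10, stood above the highest WT mouse, replicate 2. WT replicates 3 and 4 had 3 and 2 counts, at or under the floor, and replicates 9 and 12 were highest among the Pparg-/-epi mice. Stra6 rose by 4.46 on the log2 scale (22.0-fold, SE 0.54, adjusted p = 3.45e-04), with all 6 Pparg-/-epi mice above all 6 WT mice, and ranked 5 by fold change among the 754 genes that were higher.

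Stra6 rose by 5.17 on the log2 scale without WT replicate 2 (SE 0.43, adjusted p = 2.14e-05). It was altered in females alone, where 4.48% of all genes were (log2 fold change 4.06, adjusted p = 0.0304), and in males alone, where 0.124% were (log2 fold change 5.07, adjusted p = 0.0404). Against the 2 WT mice outside number 226, a comparison in which 2.68% of all genes were altered, its log2 fold change was 3.65 (adjusted p = 0.0140). Over its 25 alternatives the adjusted p of Stra6 ran from 3.69e-17 to 0.0404. Within number 222, Stra6 was at 2.97 CPM in the WT mouse and 15.1 CPM in the Pparg-/-epi mouse.

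Binding of retinoic acid in the cytosol falls to Crabp1 and Crabp2, and CRABP2 is known for passing the acid to its nuclear receptors. Crabp2, on chromosome 3 from 87948693 to 87953372 (plus strand), was at 105, 115 and 168 CPM in the lowest, median and highest WT mice. In Pparg-/-epi mice it was at 147, 158 and 192 CPM. All 6 Pparg-/-epi mice lay above the WT median, and 2 above the highest WT mouse, replicate 3, which stood apart from the other WT mice (105 to 128 CPM). Its log2 fold change was 0.43 (1.35-fold, SE 0.12, adjusted p = 0.0307), below the fold minimum, and 0.38 without WT replicate 2 (adjusted p = 0.0475). Over its alternatives the adjusted p of Crabp2 ran from 0.00383 to 0.478, above 0.05 with the hair follicle marker sum as a covariate (0.0528), in females alone (0.0757), in males alone (0.478) and against the 2 WT mice outside number 226 (0.0653), and in 7 of the 12 fits without 1 mouse.

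Crabp1, on chromosome 9 from 54764748 to 54773110 (plus strand), had 3.50, 6.61 and 15.9 CPM in the lowest, median and highest WT mice. The Pparg-/-epi mice had 5.41, 11.0 and 16.5 CPM. The groups overlapped: WT replicate 1 was about as high as the highest Pparg-/-epi mice, and the 2 male Pparg-/-epi mice were the lowest of their group. The log2 fold change of 0.53 (SE 0.36) did not pass the test (adjusted p = 0.372), with 5 of 6 Pparg-/-epi mice above the WT median. It was 1.17 in females alone (adjusted p = 0.111) and -0.54 in males alone (adjusted p = 0.669). The difference between the sexes (male minus female) was -1.70 on the log2 scale, with an unadjusted p of 0.0256 and an adjusted p of 0.895 in edgeR's quasi-likelihood test of the interaction. By that test 0 of 14533 genes (0%) had an adjusted p under 0.05, and 741 genes (5.10%) an unadjusted p under 0.05. Of the 8 genes, Crabp1 was the only one under the unadjusted limit.

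Synthesis takes 2 steps. Dhrs9 encodes a dehydrogenase that can oxidise retinol to retinal, and lies on chromosome 2 from 69380462 to 69403086 (plus strand). WT mice had 1.60, 5.11 and 25.2 CPM of Dhrs9 (lowest, median and highest), and Pparg-/-epi mice 10.3, 17.7 and 22.4 CPM. All but 1 of the WT mice lay below all Pparg-/-epi mice, and the exception, WT replicate 2, was above every Pparg-/-epi mouse. With all mice the log2 fold change was 1.01 (SE 0.50, adjusted p = 0.204), although all 6 Pparg-/-epi mice were above the WT median. Without WT replicate 2, whose level was 25.2 CPM against 1.60 to 8.95 CPM in the other WT mice, it was 1.74 (SE 0.34, adjusted p = 0.00400). Against the 2 WT mice outside number 226, of which replicate 2 is 1, it was 0.0046 (adjusted p = 0.997).

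Aldh1a1 and Aldh1a3 encode enzymes that oxidise retinal to retinoic acid, and 1 of the pair was altered. Aldh1a3, on chromosome 7 from 66390893 to 66427477 (minus strand), was covered by 2 to 120 counts per WT mouse and 59 to 366 per Pparg-/-epi mouse. In CPM the lowest, median and highest WT mice were at 0.213, 1.32 and 6.37, and the Pparg-/-epi mice at 4.91, 13.6 and 22.2. The groups overlapped through 1 mouse of each: WT replicate 2 was above Pparg-/-epi replicate 10, the 2 mice of number 222, and the other 5 Pparg-/-epi mice lay above every WT mouse. Aldh1a3 rose by 2.42 on the log2 scale (5.34-fold, SE 0.61, adjusted p = 0.0186), with all 6 Pparg-/-epi mice above the WT median, and ranked 90 among the 754 genes that were higher. Leaving out WT replicate 2 gave a log2 fold change of 2.96 (SE 0.58, adjusted p = 0.00382).

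The call for Aldh1a3 held in each of the 12 fits without 1 mouse (adjusted p from 0.00382 to 0.0449), but not in smaller sets of mice. It also held with sex, RIN, age, the fibroblast sum or the hair follicle sum as a covariate. It was lost in females alone (log2 fold change 1.98, adjusted p = 0.0983), in males alone (3.09, adjusted p = 0.164) and against the 2 WT mice outside number 226 (1.80, adjusted p = 0.203). Mouse numbers were also split into lower (192 to 217) and higher ones (222 to 226). The lower ones are those of WT replicate 1 and Pparg-/-epi replicates 7, 8 and 9. With that split as a covariate, where 8.27% of all genes were altered, the log2 fold change was 2.13 (adjusted p = 0.0683). Over its 25 alternatives the adjusted p of Aldh1a3 ran from 4.13e-04 to 0.203, and the log2 fold change was above 0 in each.

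Aldh1a1, on chromosome 19 from 20601982 to 20643462 (plus strand), was at 2.33, 8.11 and 23.0 CPM in the lowest, median and highest WT mice. In Pparg-/-epi mice it was at 4.16, 6.63 and 11.1 CPM. The Pparg-/-epi mice lay within the WT range, whose top was set by males 1 and 5 at 23.0 and 19.6 CPM. The log2 fold change of -0.64 (SE 0.49) did not pass the test (adjusted p = 0.427), with 4 of 6 Pparg-/-epi mice below the WT median. It was -0.28 without WT replicate 1 (adjusted p = 0.725), -0.39 without WT replicate 5 (adjusted p = 0.684), -0.68 without WT replicate 2 (adjusted p = 0.366) and -0.019 in females alone (adjusted p = 0.985). In males alone it was -0.85 (adjusted p = 0.640), and against the 2 WT mice outside number 226 -1.21 (adjusted p = 0.141). Over its 25 alternatives it was below 0 in each, with an adjusted p from 0.141 to 0.985.

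Set against each other per length, as RPKM (CPM per kilobase of exon), the order of the pair differed between mice. The ratio of Aldh1a3 to Aldh1a1 was 0.0315, 0.0665 and 1.10 in the lowest, median and highest WT mice, and exceeded 1 in 1 of 6, replicate 6. In Pparg-/-epi mice it was 0.458, 1.19 and 1.94, and exceeded 1 in 4 of 6, the 4 females. Both male Pparg-/-epi mice had more Aldh1a1 than Aldh1a3. The ratio was not tested.

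**Figure D2:**
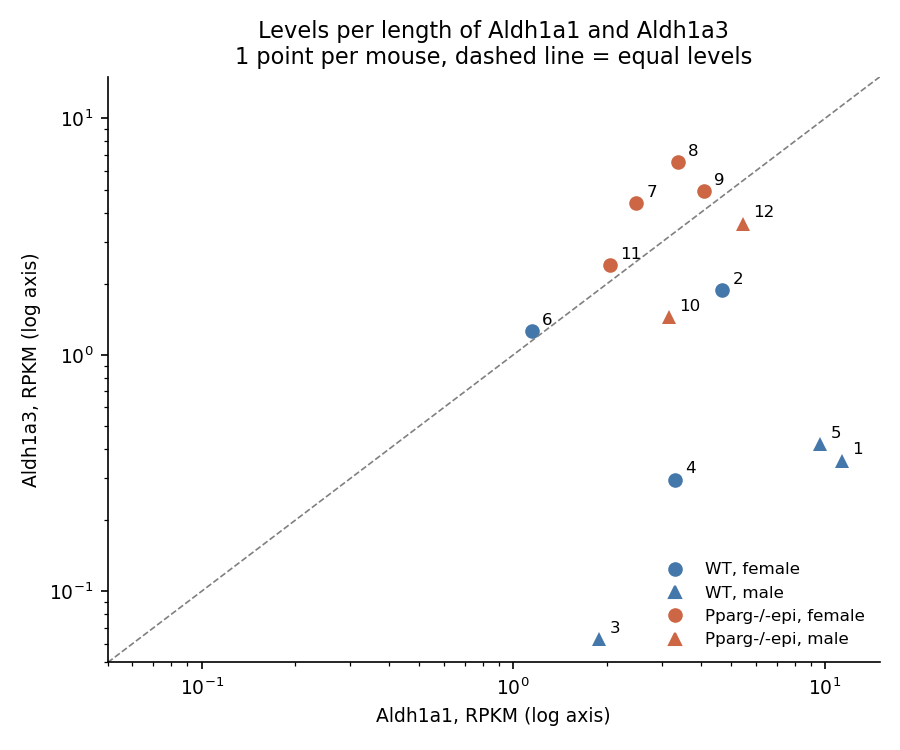
Aldh1a3 against Aldh1a1 in each mouse, both in RPKM on log axes, with the replicate number beside each point, circles for females, triangles for males and a dashed line where the levels are equal. WT replicate 6 and the 4 female Pparg-/-epi mice lie above the line, and the other 7 mice below it.

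Degradation and the receptor complete the set. Cyp26b1 encodes an enzyme that inactivates retinoic acid, and lies on chromosome 6 from 84571414 to 84593908 (minus strand). It was at 59.5, 102 and 184 CPM in the lowest, median and highest WT mice and at 92.9, 156 and 181 CPM in Pparg-/-epi mice. WT replicate 2 was the highest mouse of all and replicate 6 the lowest, and the groups overlapped over most of their range. Its log2 fold change was 0.43 (SE 0.24, adjusted p = 0.260), with 5 of 6 Pparg-/-epi mice above the WT median. Without WT replicate 2 it was 0.63 (SE 0.20, adjusted p = 0.0426), just past the fold minimum, and against the 2 WT mice outside number 226 it was 0.018 (adjusted p = 0.980).

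Rarg encodes a nuclear receptor for retinoic acid, known as the main one of the epidermis, and lies on chromosome 15 from 102234938 to 102257522 (minus strand). Its level was 287, 348 and 373 CPM in the lowest, median and highest WT mice and 279, 303 and 353 CPM in Pparg-/-epi mice. The spread was narrow in both groups, and 5 of 6 Pparg-/-epi mice lay below the WT median. Rarg did not pass the test, with a log2 fold change of -0.14 (SE 0.10, adjusted p = 0.378) and -0.19 without WT replicate 2 (adjusted p = 0.158).

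Little of the sequence of the 8 genes is shared with other genes, and an effect on their counts was not measured. Of the stretches of 75 bases in their transcripts, 1.01% for Aldh1a1 also occur in another gene, Aldh1a7, and 0.587% for Aldh1a3 in other genes, while the other 6 genes share 0%. No exon of the 8 overlaps an annotated exon of another gene.

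Per length, the order of the levels was led by the same 4 genes in both groups. In WT mice Crabp2 stood at 137 ± 26.0 RPKM (SD, n = 6), Rarg at 99.2 ± 10.9, Cyp26b1 at 22.8 ± 8.76 and Crabp1 at 9.79 ± 5.60. Aldh1a1 (5.33 ± 4.21 RPKM), Dhrs9 (2.96 ± 3.05), Aldh1a3 (0.711 ± 0.700) and Stra6 (0.277 ± 0.281) followed, with Stra6 last. In Pparg-/-epi mice Crabp2 was at 185 ± 21.6 RPKM (SD, n = 6), Rarg at 90.3 ± 8.12, Cyp26b1 at 30.7 ± 7.14 and Crabp1 at 14.1 ± 5.35. Stra6 came next at 6.41 ± 2.28 RPKM, before Dhrs9 (6.01 ± 1.47), Aldh1a3 (3.88 ± 1.82) and Aldh1a1 (3.43 ± 1.22). The ranges of Crabp2, Rarg and Cyp26b1 were apart from each other in both groups, and every later neighbour overlapped the one before it. Crabp2 exceeded Crabp1 in all 12 mice, 6.53 to 27.6 times in WT and 7.93 to 26.2 times in Pparg-/-epi mice.

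Markers of other cell types moved with some of these results, and fewer cells of a type and less RNA per cell cannot be told apart in bulk tissue. All 16 markers of the growing hair follicle were in the table, with Tchh the most abundant. They summed to 28.4, 2290.1, 175, 35.1, 173 and 606 CPM in WT replicates 1 to 6 and to 1717, 4900.4, 523, 179, 512 and 371 CPM in Pparg-/-epi replicates 7 to 12. At least 1 WT mouse had 0 counts of 7 of these markers (Krt25, Krt72, Krt33b, Krt34, Krt35, Krt85 and Krt86), no Pparg-/-epi mouse was at 0 for any, and 0 of the 16 were altered, beside 10.3% of all genes. WT replicates 2 and 6, highest in this sum, were also the highest WT mice for Stra6 and Aldh1a3, while replicate 6 was the lowest for Cyp26b1. Pparg-/-epi replicate 8 was highest in both the sum and Aldh1a3, but Stra6 was highest in replicates 9 and 12, whose sums were below those of replicates 7 and 8. With the sum as a covariate the log2 fold change was 4.25 for Stra6 (adjusted p = 4.15e-04), 1.89 for Aldh1a3 (adjusted p = 0.0186), 0.76 for Dhrs9 (adjusted p = 0.352) and 0.31 for Cyp26b1 (adjusted p = 0.536). The mice highest in the sum, WT replicate 2 and Pparg-/-epi replicates 7 and 8, were also highest in RIN. Theirs was 8.6, 8.6 and 8.5, against 5.7 to 7.7 in the others. With RIN as a covariate the log2 fold change was 4.39 for Stra6 (adjusted p = 3.09e-04) and 2.17 for Aldh1a3 (adjusted p = 0.0194). It was 0.91 for Dhrs9 (adjusted p = 0.0853) and 0.31 for Cyp26b1 (adjusted p = 0.317).

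**Figure D3:**
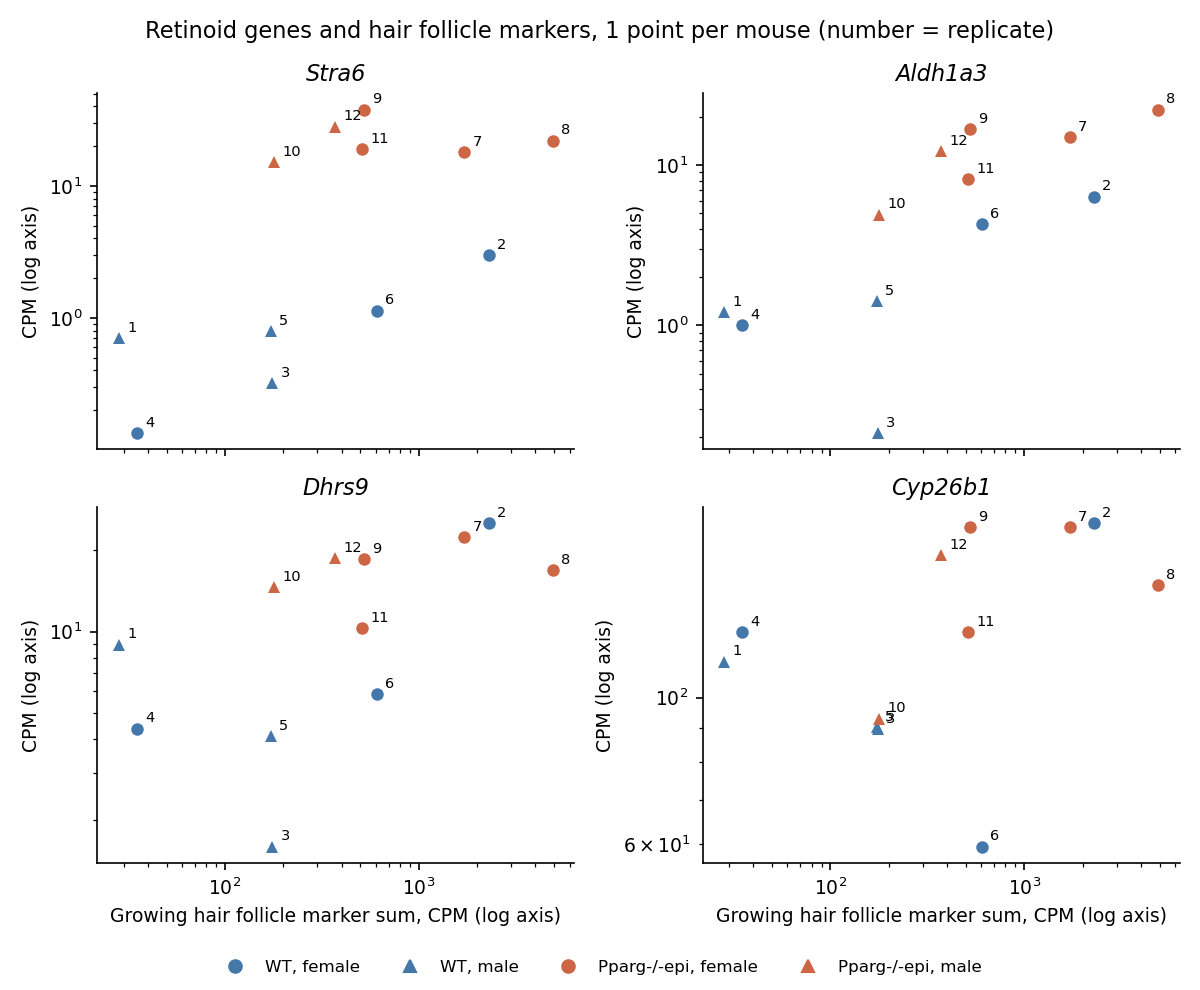
Level of Stra6, Aldh1a3, Dhrs9 and Cyp26b1 in each mouse (CPM, log axis) against the summed level of the 16 growing hair follicle markers (CPM, log axis), with the replicate number beside each point. For Stra6 all Pparg-/-epi mice lie above all WT mice, and for Dhrs9 and Cyp26b1 WT replicate 2 lies above every Pparg-/-epi mouse.

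Other lists differed between mice as well, and the part of the endothelium, mast cell, bulge and sebocyte lists in the results was not tested. The 6 endothelium markers, led by Pecam1, summed to 5.16 to 123 CPM in WT (highest in replicate 2) and 33.4 to 196 CPM in Pparg-/-epi mice, ranges that overlap, and 1 of the 6 was altered, higher, beside 10.3% of all genes. The 5 mast cell markers, led by Mcpt4, were all altered and higher, from 16.2 to 78.2 CPM in WT to 115 to 196 CPM in Pparg-/-epi mice, with Fcer1a at 0 in at least 1 WT mouse. The 6 hair follicle bulge markers, led by Krt15, summed to 2624 to 4637 CPM in WT and 857 to 1570 CPM in Pparg-/-epi mice, and 1 of the 6 was altered, lower. Most of that sum is Krt15 alone, at 2058 to 4407 CPM in WT and 600 to 1423 CPM in Pparg-/-epi mice. Of the 9 sebocyte markers 8 were in the table (Mc5r was not), led in WT by Scd3, and 5 were altered, all lower. Their sum was 628, 1088, 26.1, 87.9, 386 and 44.4 CPM in WT replicates 1 to 6 and 22.4 to 65.3 CPM in Pparg-/-epi mice, where Awat1, Scd3 and Fa2h were at 0 in at least 1 mouse. WT replicate 1, with the highest fibroblast sum (39165 CPM), was the highest WT mouse for Crabp1 and Aldh1a1, and replicate 5, with the highest skeletal muscle sum (9059 CPM), was the next for Aldh1a1. With the fibroblast sum as a covariate the log2 fold change was 0.48 for Crabp1 (adjusted p = 0.293) and -0.63 for Aldh1a1 (adjusted p = 0.268).

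The remaining lists were read in the same way. Of the epidermal and fibroblast lists, 1 basal and 1 fibroblast marker were altered, both higher, and 0 suprabasal ones. The counts of altered markers in this and the next sentences stand beside 10.3% of all genes, and a share near that is not a result about a list. The 6 dermal papilla markers in the table of 8 looked for (Corin and Sox2 were not), led by Prdm1, summed to 179 to 268 CPM in WT and 221 to 345 CPM in Pparg-/-epi mice, and 1 was altered higher and 2 lower, with Alx4 at 0 in at least 1 mouse of each group and Wif1 in at least 1 WT mouse. The 6 adipocyte markers, led by Cfd, summed to 2.88 to 167 CPM in WT and 8.40 to 55.2 CPM in Pparg-/-epi mice, and the 5 skeletal muscle markers, led by Myh4, to 10.0 to 9059 CPM and 8.48 to 354 CPM, with Lep, an adipocyte marker, at 0 in at least 1 WT mouse. The 4 melanocyte markers in the table of 5 (Tyr was not), led by Dct, ran from 3.52 to 38.0 CPM in WT and 10.5 to 166 CPM in Pparg-/-epi mice. The 7 markers of Langerhans and dendritic cells, led by Cd74, ran from 1369 to 3140.2 CPM and 1878 to 2107 CPM, and 1 was altered, higher. The 6 macrophage markers, led by Lyz2, ran from 86.9 to 695 CPM in WT and 192 to 375 CPM in Pparg-/-epi mice, and the 6 T cell markers, led by Thy1, from 157 to 273 CPM and 194 to 251 CPM, with 2 of the T cell markers altered, both lower. Of the adipocyte, skeletal muscle, melanocyte and macrophage lists 0 markers were altered.

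The wider pathway was read from a list of 57 other retinoid genes written by role, of which 48 were in the table. Of these 3 were altered and higher in Pparg-/-epi mice, 6 were altered and lower, and 39 were not altered. That is 18.8% altered, beside 10.3% of all genes, with a median log2 fold change of -0.10, and 13 were altered without WT replicate 2, where 15.5% of all genes were. By role, 2 higher and 2 lower genes were among the 13 carriers and genes of uptake and esterification, and 1 lower among the 3 of ester hydrolysis. Among 16 genes of retinol oxidation and retinal reduction 2 were lower, among 3 listed under retinal oxidation 1 was lower, and of the 2 that bind or degrade retinoic acid 1 was higher. None of the 6 receptors and none of the 5 corepressors and coactivators was altered in edgeR's quasi-likelihood test. There 1 receptor, Ppard, passed by p (unadjusted 1.19e-04, adjusted 0.00370) but not by fold change. Of the coregulators, 1, Nrip1, had an unadjusted p under 0.05 (0.0310), with an adjusted p of 0.125.

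Higher beside Stra6 were 2 intracellular retinol carriers. Rbp2, known from the gut, was at 15.6, 18.6 and 26.9 CPM in the lowest, median and highest WT mice and at 54.5, 63.8 and 73.0 CPM in Pparg-/-epi mice. No WT mouse reached any Pparg-/-epi mouse, and Rbp2 rose by 1.67 (SE 0.14, adjusted p = 3.53e-05). It lost its call in 1 of 25 alternatives, males alone (1.42, adjusted p = 0.0938). Rbp7 rose by 1.78 (adjusted p = 0.0322, all 6 Pparg-/-epi mice above the WT median) from 2 to 24 counts in WT to 7 to 45 counts, but it lost its call in 13 of 25 alternatives, 8 of them fits without 1 mouse. Its log2 fold change ran from 0.90 against the 2 WT mice outside number 226 (adjusted p = 0.436) to 2.33 without WT replicate 2 (adjusted p = 0.00435). It was not altered either with the hair follicle marker sum or the mouse number as a covariate.

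Fabp5 encodes a fatty acid binding protein described as carrying retinoic acid to PPAR delta. It was at 184, 271 and 305 CPM in the lowest, median and highest WT mice and at 390.3, 430 and 553 CPM in Pparg-/-epi mice, without overlap. It rose by 0.83 on the log2 scale (SE 0.14, adjusted p = 0.00262), and 3.03% of its stretches of 75 bases occur in other genes. It lost its call in 2 of 25 alternatives, males alone (0.51, adjusted p = 0.207) and against the 2 WT mice outside number 226. Per length, the ratio of Fabp5 to Crabp2 was 1.58, 1.95 and 2.55 in the lowest, median and highest WT mice and 2.07, 2.56 and 3.39 in Pparg-/-epi mice, so that the ranges overlapped. Ppard, the gene of PPAR delta, had non-overlapping groups at 44.3 to 62.8 and 72.7 to 104 CPM, with a log2 fold change of 0.59 (adjusted p = 0.00370), just under the fold minimum, which it passed in 6 of 25 alternatives, 5 of them fits without 1 mouse.

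Among the genes that fell are ones that form or cleave retinyl esters, cleave beta-carotene or oxidise retinol. Adh1, an alcohol dehydrogenase that oxidises retinol, was at 33.1, 60.2 and 118 CPM in the lowest, median and highest WT mice and at 13.2, 18.3 and 28.7 CPM in Pparg-/-epi mice. The groups did not overlap, and Adh1 fell by 1.90 on the log2 scale (SE 0.34, adjusted p = 0.00327). Its call was lost in 2 of 25 alternatives, males alone (adjusted p = 0.131) and against the 2 WT mice outside number 226, and its log2 fold change ran from -2.06 to -1.15 over all of them. Of its exon bases 10.2% overlap Gm16559 on the opposite strand. Aldh1a7, listed under retinal oxidation as a close relative of Aldh1a1 but not known to oxidise retinal, fell by 1.08 (adjusted p = 0.0287), with 5 of 6 Pparg-/-epi mice below the lowest WT mouse, and lost its call in 9 of 25 alternatives, 5 of them fits without 1 mouse.

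Ces1d, a carboxylesterase able to hydrolyse retinyl esters, fell by 4.14 (SE 0.84, adjusted p = 0.00599), from 18 to 998 counts per WT mouse to 2 to 37 per Pparg-/-epi mouse. Awat2, which can esterify retinol and is also on the sebocyte list, was at 0.533 to 68.6 CPM in WT and 0.515 to 1.35 CPM in Pparg-/-epi mice. All 6 Pparg-/-epi mice were below the WT median in both genes, and in both the highest WT mouse was replicate 2, the highest in the sebocyte sum. Awat2 fell by 4.08 (SE 1.07, adjusted p = 0.0219), and by 1.86 without that mouse (adjusted p = 0.0210), while Ces1d fell by 3.40 without it (adjusted p = 0.00531). Awat2 lost its call in 4 of its 24 alternatives, with an adjusted p of up to 0.408, and Ces1d in 2 of 25, with one of up to 0.195. Over all alternatives the log2 fold change ran from -5.48 to -1.86 for Awat2 and from -5.22 to -3.40 for Ces1d. The calls for Bco1, which cleaves beta-carotene to retinal, and Rdh16, a retinol dehydrogenase, were less steady. Bco1 fell by 0.90 (adjusted p = 0.0431, all 6 Pparg-/-epi mice below the WT median) and lost its call in 18 of 25 alternatives, 9 of them fits without 1 mouse. Rdh16 fell by 1.15 (adjusted p = 0.04996, all 6 Pparg-/-epi mice below the WT median), lost it in 19 of 25, 10 of them such fits, had 9 to 39 counts per mouse and shares 9.64% of its stretches with other genes. Without WT replicate 2 Rdh16 fell by 1.34 (adjusted p = 0.0106). Over its 25 alternatives the log2 fold change of Rdh16 ran from -1.40 to -0.38, with an adjusted p of up to 0.695. That of Bco1 ran from -1.19 to -0.35, with an adjusted p of up to 0.657.

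**Figure D4:**
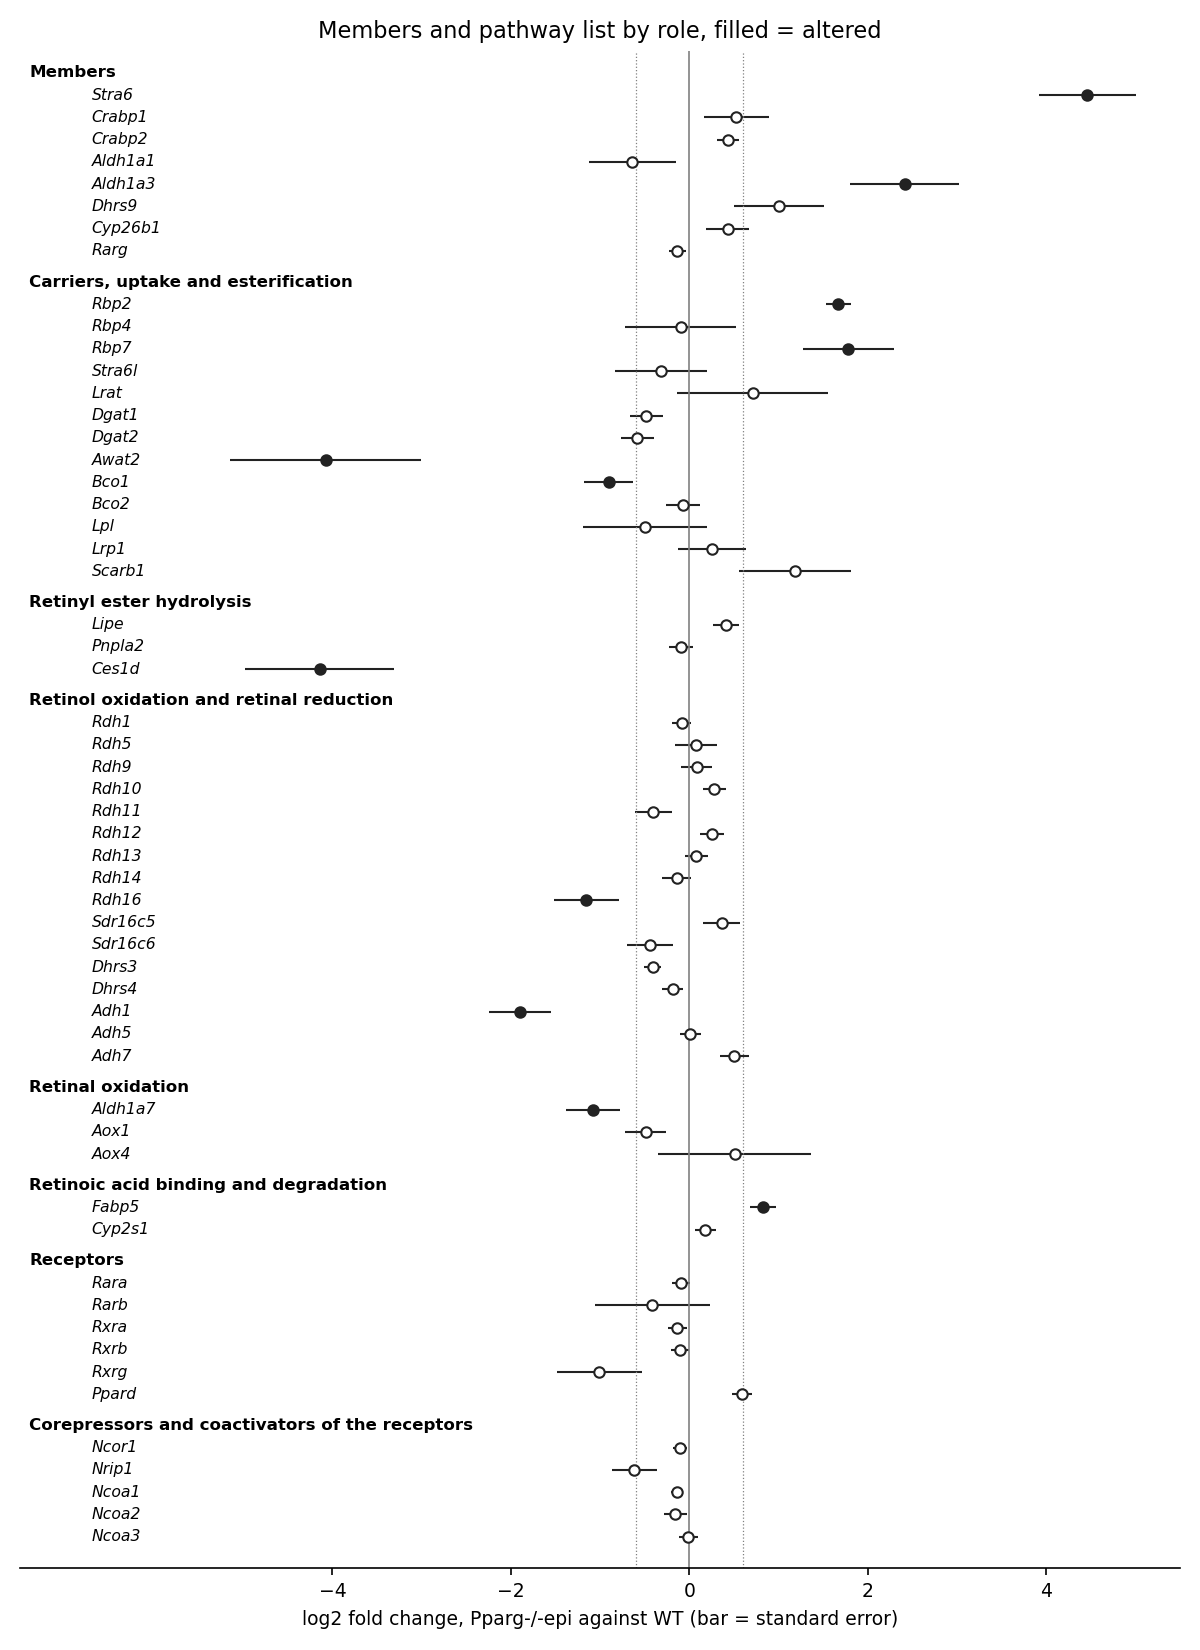
Log2 fold change of Pparg-/-epi against WT mice (6 each) for the 8 genes and the 48 other retinoid genes in the table, grouped by role, with bars of 1 standard error, filled points for altered genes and dotted lines at the fold minimum of 0.6 in each direction. Filled points stand above 0 for Stra6, Aldh1a3, 2 retinol carriers and Fabp5, and below 0 for Awat2, Bco1, Ces1d, Rdh16, Adh1 and Aldh1a7.

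Like Rarg, the other nuclear receptors of the pathway were not altered. For Rara the log2 fold change was -0.09 (adjusted p = 0.589), for Rxra -0.13 (adjusted p = 0.448) and for Rxrb -0.10 (adjusted p = 0.553). Rarb and Rxrg were near the lower end of the table, with at most 25 counts of Rarb in any mouse, and their log2 fold changes were -0.41 (adjusted p = 0.726) and -1.01 (adjusted p = 0.181). Among the other genes above a mean of 20 CPM that were not altered, Dhrs3, which turns retinal back to retinol, had non-overlapping groups at 68.2 to 91.5 and 50.1 to 68.0 CPM (log2 fold change -0.41, adjusted p = 0.0140). Dgat2, at -0.58 on the same scale (adjusted p = 0.0551), passed without WT replicate 2 (-0.72, adjusted p = 0.00330). Scarb1 likewise passed only without that mouse among its 25 alternatives (log2 fold change 1.19 with it, adjusted p = 0.234, and 1.89 without it, adjusted p = 0.0291).

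Genes known as induced by retinoic acid were read from a separate list of 15, which shares Stra6, Crabp2 and Cyp26b1 with the 8 genes. In the table were 12, of which 3 were altered and higher and 1 was altered and lower (33.3%, beside 10.3% of all genes), with a median log2 fold change of 0.43. Without WT replicate 2, 6 of the 12 were altered, beside 15.5% of all genes. Apart from Stra6, the altered ones were Hbegf, a growth factor of keratinocytes, which rose by 2.29 (adjusted p = 0.00175, groups apart), the keratin Krt4, which rose by 1.26 (adjusted p = 0.0323, 5 of 6 Pparg-/-epi mice above every WT mouse) and Rarres1, which fell by 0.80 (adjusted p = 0.0130, groups apart). Krt4 had 5 to 37 counts per mouse and lost its call in 9 of 25 alternatives, 7 of them fits without 1 mouse, while Hbegf and Rarres1 lost theirs in 2 of 25 each. Of the 12 genes, 8 had a log2 fold change above 0 and 4 below 0. Besides Rarres1, those below 0 were Dhrs3 (-0.41, adjusted p = 0.0140, groups apart), Nrip1 (-0.62, adjusted p = 0.125) and Rarb (-0.41, adjusted p = 0.726), none of them altered.

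To see which genes varied most like each of the 8 from mouse to mouse, Pearson's r of log2 CPM was taken over the 12 mice after the mean of each genotype was subtracted. These values are descriptions over points that share their libraries, and were not recomputed without WT replicate 2. Stra6 was followed most closely by Krt17 (r = 0.951), S1pr3 (0.928) and Tagln2 (0.912), and all 3 were altered and higher (log2 fold changes 1.79, 2.15 and 1.36), beside 10.3% of all genes altered. Aldh1a3 was followed by Greb1 (0.951), F5 (0.945) and Gdf10 (0.928), whose adjusted p was 0.996, 0.957 and 0.331. Dhrs9 went with Pthlh (0.953), Cd4 (0.951) and Kif5a (0.950), and Cyp26b1 with Gpr1 (0.953), Cd33 (0.945) and Lyn (0.938). Crabp1 went with Cmtm7 (0.944), Fmn2 (0.944) and Spon1 (0.936), and Crabp2 with Bok (0.870), Plbd1 (0.859) and Gsta1 (0.855). For Aldh1a1 they were Dnm3os (0.884), Gpr4 (0.872) and Camk2a (0.861), and for Rarg Ap1b1 (0.914), Usp5 (0.913) and Pld3 (0.911). Apart from those of Stra6, only Gpr4 among these genes was altered, and it was higher (log2 fold change 1.19, adjusted p = 0.0453). No gene of the 8 was among the 3 closest of another.

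Promoter windows of 300 bases, from 250 before to 50 after a start site, were taken from RefSeq (GRCm38.p6). The table has 11 windows for 6 of the 8 genes, and none for Crabp2 and Aldh1a3. Each was searched on both strands for AGGTCA, the core letters bound by retinoid receptors and PPARs, and for its direct repeats with 1, 2 or 5 bases between (DR1, DR2 and DR5). AGGTCA occurs in 16.3% of 32851 windows, DR1 in 13 windows (0.0396%), and DR2 and DR5 in 3 each (0.00913%). Of the 11 windows 2 hold AGGTCA, 1 each of Dhrs9 and Rarg, and 0 hold an exact repeat. Copies that differ in any letter, and sequence outside the windows, were not looked at. The table has 8 windows for 7 of the 9 altered genes of the pathway list (none for Ces1d and Fabp5), of which 3 hold AGGTCA: the windows of Rbp2 and Rdh16 hold 1 copy each, at -58 and -238, and that of Bco1 holds 2 copies that form a DR1. Shown are the first Stra6 window (chr9:58128838-58129137, plus strand), since Stra6 rose under every alternative, the Dhrs9 window (chr2:69380212-69380511, plus strand), with its match at -88, and the Bco1 window (chr8:117095615-117095914, plus strand), chosen after its match was seen. Capitals mark AGGTCA read on the other strand, and a match is a description of letters, not a binding site.
Stra6: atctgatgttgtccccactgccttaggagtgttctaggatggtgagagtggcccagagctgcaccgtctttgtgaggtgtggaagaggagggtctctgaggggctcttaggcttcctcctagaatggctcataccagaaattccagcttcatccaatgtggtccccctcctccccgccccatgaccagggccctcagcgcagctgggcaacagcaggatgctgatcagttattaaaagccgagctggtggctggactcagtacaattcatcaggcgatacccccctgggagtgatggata
Dhrs9: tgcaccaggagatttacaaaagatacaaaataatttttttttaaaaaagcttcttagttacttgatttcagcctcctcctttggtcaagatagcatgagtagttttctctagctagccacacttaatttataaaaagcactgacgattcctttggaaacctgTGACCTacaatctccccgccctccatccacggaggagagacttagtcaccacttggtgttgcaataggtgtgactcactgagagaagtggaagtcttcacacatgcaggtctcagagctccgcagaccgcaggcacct
Bco1: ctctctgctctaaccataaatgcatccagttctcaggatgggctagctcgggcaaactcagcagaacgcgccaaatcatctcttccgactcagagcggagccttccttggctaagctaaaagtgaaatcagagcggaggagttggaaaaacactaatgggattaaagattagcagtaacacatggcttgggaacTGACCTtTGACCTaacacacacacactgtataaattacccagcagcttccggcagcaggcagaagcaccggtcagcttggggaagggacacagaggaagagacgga

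**Figure D5:**
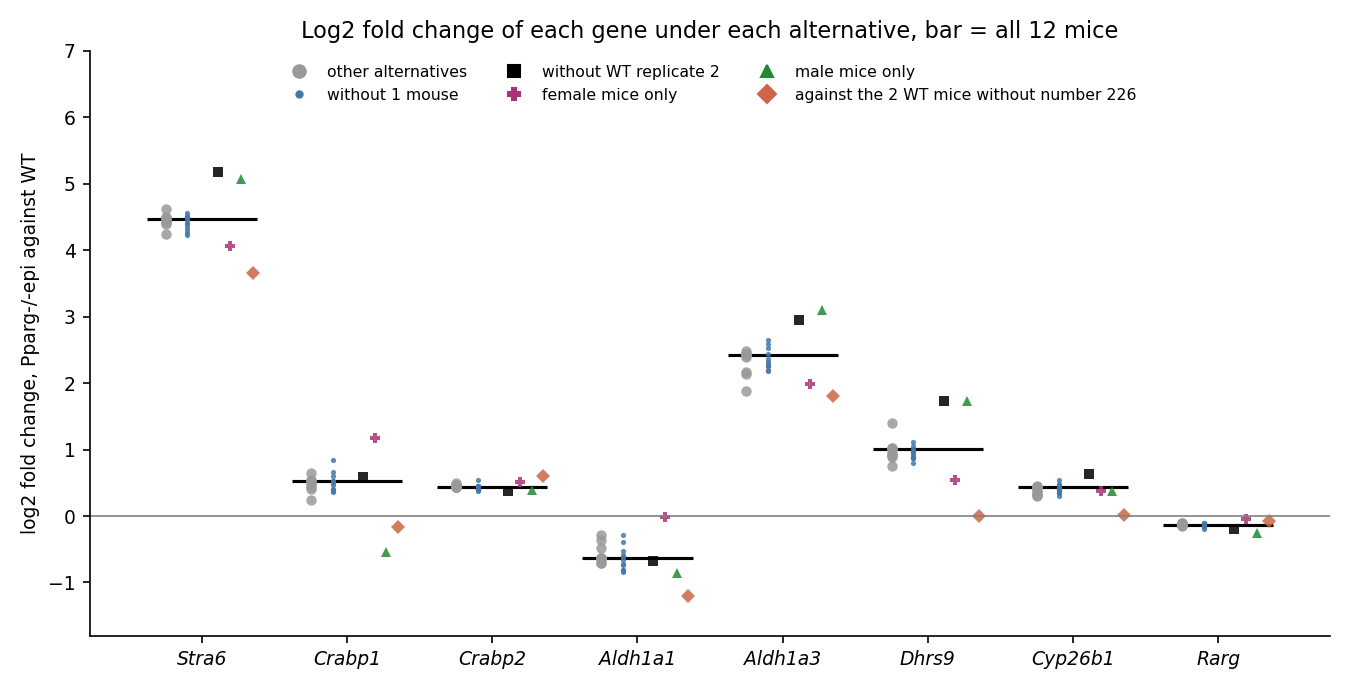
Log2 fold change of Pparg-/-epi against WT for each of the 8 genes under each alternative, with a bar at the value from all 12 mice, small points for fits without 1 mouse and separate marks for WT replicate 2 left out, females alone, males alone and the 2 WT mice outside number 226. Stra6 lies between 3.65 and 5.17 throughout and Aldh1a3 between 1.80 and 3.09, while Dhrs9 ranges from 0.0046 to 1.74.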

How the data were processed

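Epidermal scrapings of 6 WT and 6 Pparg-/-epi mice were sequenced as mRNA libraries (KAPA mRNA HyperPrep), 1 per mouse. The authors deposited counts of reads per gene, without normalization, made with STAR 2.5.2b on mm10, removal of multi-mapped reads and featureCounts (Subread 1.5.1), and the summed exon length of each gene. The table lists 14533 genes after 2800 blank lines were dropped. Library totals ran from 10120840 to 18851255.

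Counts were compared with edgeR 4.0.16 (quasi-likelihood test, TMM, genotype as the only term; limma 3.58.1, R 4.3.3), with Benjamini-Hochberg adjustment over all 14533 genes. Levels are CPM with TMM factors and RPKM, and log2 CPM used a prior count of 2. The sex by genotype interaction was tested with the same tool. The standard error (SE) is not given by that test. It was taken as the absolute log2 fold change divided by the square root of the F statistic. Tables and figures were made with Python 3.11.15, pandas 2.3.3, numpy 2.4.6 and matplotlib 3.10.9.

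Alternatives were the likelihood ratio test, DESeq2 1.42.0, total counts in place of TMM, a mean of at least 1 CPM, adjusted p alone, and as covariates sex, RIN, age by the labels, the fibroblast and the growing hair follicle marker sums, and lower or higher mouse numbers. Others were females or males alone, the 2 WT mice outside number 226 as controls, and each mouse left out in turn. Named are Pparg, the 8 genes, altered genes of the retinoid pathway list, its receptors, further ones above a mean of 20 CPM, the 3 genes most like each of the 8, and the most abundant gene of each of 15 marker lists. Not every unaltered pathway gene is named, and altered genes of the list of retinoic acid-induced genes are named after their values were seen. The 8 genes and all lists were chosen with earlier results of these data known. Some genes of the lists are not reported here, and the counts leave them out. Proteins were not used here. The supplement gives other ages than the labels for WT replicate 2 and Pparg-/-epi replicate 10, and the count columns of Pparg-/-epi replicates 11 and 12 were matched to their mice through it.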

Additional observations from a re-analysis of the deposited data

Results flagged for a closer look

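In groups of 6 mice, a highest or lowest value was singled out when its gap to the next, divided by the whole range, exceeded Dixon's critical value for 6 samples. Of 72 groups (21 genes and 15 marker sums in each genotype), 14 had such a value. Chance gives about 1 in 20 for independent, normally distributed values, which genes and sums from the same 12 mice are not, so the count is a description only. WT replicate 2 accounts for 7 of the 14. It was far above the other WT mice in Pparg (14.3 CPM against 0.533 to 4.58), Stra6 (2.97 CPM against 0.134 to 1.13), Dhrs9 (25.2 CPM against 1.60 to 8.95) and Awat2 (68.6 CPM against 0.533 to 6.71). The same mouse was high in the growing hair follicle sum (2290.1 CPM against 28.4 to 606) and in the Langerhans and dendritic cell sum (3140.2 CPM against 1369 to 1867). It was low in the suprabasal keratinocyte sum (14933.5 CPM against 35176 to 44227).

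Crabp2 was high in WT replicate 3 (168 CPM against 105 to 128). Rdh16 was high in Pparg-/-epi replicate 12 (1.72 CPM against 0.606 to 0.915). Pparg-/-epi replicate 8 was high in the growing hair follicle sum (4900.4 CPM against 179 to 1717), the skeletal muscle sum (354 CPM against 8.48 to 116) and the melanocyte sum (166 CPM against 10.5 to 59.9). The fibroblast sum was high in WT replicate 1 (39165 CPM against 1333 to 12116), and the skeletal muscle sum in WT replicate 5 (9059 CPM against 10.0 to 231). WT replicate 2 also had the highest RIN of the WT mice (8.6 against 5.9 to 7.4). What sets these mice apart was not tested.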

How the results depend on the processing

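Alternatives were run for 51 genes, not all of them named in the text, and not for the genes most like the 8 or most marker genes. Of their values, 1138 of 1273 kept their direction and their side of the threshold, 87 kept direction but lost the call, 14 gained it and 34 changed sign, each of the last in a gene that was not altered. The number of altered genes, 1493, was 651 in females alone, 18 in males alone and 389 against the 2 WT mice outside number 226, fits with fewer mice, and 1116 to 2249 with each mouse left out (2249 without WT replicate 2). With all 12 mice it was 1712 in the likelihood ratio test and 1787 with DESeq2, and lowest, at 1076, with the hair follicle marker sum as a covariate. The 2 altered genes of the 8 became 1 (Stra6) with the mouse number as a covariate, in females alone, in males alone and against those 2 WT mice, and stayed at 2 to 4 with each mouse left out, 4 without WT replicate 2. The median log2 fold change of all genes was -0.011 with TMM, -0.0079 with total counts and -0.011 with DESeq2.

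The log2 fold changes that changed sign were as follows, and the cause was not tested. Against the 2 WT mice outside number 226 they were -0.17 for Crabp1, -0.60 for Lrp1, 0.22 for Rdh14, 0.054 for Dhrs4, 0.015 for Rxrb and 0.049 for Ncor1. In males alone they were -0.54 for Crabp1, -0.30 for Lrp1 and 0.0032 for Rara. In females alone they were -0.11 for Adh5, 0.17 for Rarb and 0.029 for Rxra. With the mouse number as a covariate Lrp1 was at -0.10 and Rdh14 at 0.013, with the hair follicle sum Lrp1 was at -0.016, with RIN Adh5 was at -0.0020, and with age Pparg was at 0.35. With each mouse left out the range was -0.32 to 0.86 for Pparg, -0.77 to 0.17 for Lpl, -0.17 to 0.023 for Pnpla2, -0.022 to 0.15 for Rdh9, -0.056 to 0.076 for Adh5 and -0.065 to 0.024 for Ncoa3. Awat2 has no adjusted p from DESeq2, and Rarb is below the minimum mean of 1 CPM in that alternative. Depth limits Stra6 and Aldh1a3 in WT mice, Ces1d and Awat2 in Pparg-/-epi mice and Rarb, Rbp7, Krt4 and Rdh16 in both groups, where few counts stand behind some or all values.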
